A study of Mus musculus with 8 samples.

Results

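The regions described here are the long ones on a methylation array of mouse liver: stretches of an autosome covered by at least 7 neighbouring probes. Probes of both array designs were ordered by position, a probe that started no more than 500 bp after the end of the previous one was joined to it, and autosomal regions of 7 or more probes were kept. This gave 2716 long regions of 18946 regions in all (14.3%), which held 21179 of 83122 probes (25.5%). The rule used positions only and no signal.

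The study compared liver DNA of C57BL6/J mice at 2 ages, fetuses at embryonic day 17.5 (E17.5) and pups at postnatal day 21 (P21), taken when they left their dams, with 2 biological replicates of each. MCAM (methylated CpG island amplification with an array readout) enriched the methylated DNA, and each replicate was hybridised to 2 array designs that divide the genome between them. The fetal samples were labelled with Cy3 and the P21 samples with Cy5 on all 4 arrays with no swapped array analysed here, so in every ratio below a dye effect and an age effect cannot be told apart. Both ages of a replicate shared an array, which leaves 2 independent ratios per region. No treatment and no genetic change separated the groups. The labels name liver and no sorting of cells, and they do not say whether animals were pooled or of which sex they were. A change in the mix of cell types and a change within cells cannot be told apart in such DNA, and the markers of liver cell types cannot check the tissue, because their methylation was read and not their expression.

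DNA methylation is the addition of a methyl group to cytosine, in mammals mostly where a cytosine precedes a guanine (CpG). CpG-rich promoters are mostly free of methylation in somatic tissue, while CpGs elsewhere are mostly methylated. In MCAM, as the method is commonly run, SmaI first cuts unmethylated CCCGGG sites and leaves blunt ends, its methylation-tolerant partner XmaI then cuts the remaining, methylated CCCGGG sites and leaves overhangs, and adaptors on the overhangs allow amplification of fragments that lie between methylated sites. All probes within 1 such fragment can be lit by the same event, and a probe outside it stays dark. A region of 7 or more probes can therefore span several fragments. Liver forms blood before birth and takes on its adult metabolic role by weaning.

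The 5 regions with most probes had 31, 20, 19, 17 and 17. The long regions with 7 probes numbered 1598, 600 had 8, 261 had 9, and 257 had 10 or more. Their length ran from 867 to 5521 bp with a median of 1374.5 bp, and the median gap between neighbouring probes was 141 bp. A single gene named 1970 of them, 396 (14.6%) carried the name of a hyphen-joined pair of genes against 7.56% of autosomal regions of 2 to 6 probes, 55 (2.03%) were named for a microRNA (miRNA) against 0.952%, and 70 had no gene name. Just outside the threshold lay 3026 autosomal regions of 6 probes. Their median signal level, which is the mean log2 processed signal of a region minus the median of all probes in that channel, was 0.18 and 0.35 in E17.5 and 0.18 and 0.23 in P21, and that of the 7-probe regions 0.24 and 0.38 in E17.5 and 0.22 and 0.27 in P21.

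Promoter sequence of the genes that name such regions was taken from RefSeq (GRCm38.p6) by symbol. Of 1970 long regions with a single gene, 1115 have a gene with exactly 1 promoter window in the table, running from 250 bases before to 50 after the start. The 6 printed here are those of 3 regions that were lower at P21 on both arrays with no CCCGGG or 1 in the window (Sult5a1, Fcgrt and Arpin), of Junb, also lower, of Pstpip1, higher on both, and of a vomeronasal receptor whose region was dark, chosen after their values were seen. The 250 bases before the start are given, 5′ to 3′ in the gene's direction, with each CpG and each CCCGGG in capitals. The array's probe coordinates come from a build not given in the sources used here, so the place of the probes against these windows is not known.
Sult5a1, chr8:123158281-123158530, minus strand: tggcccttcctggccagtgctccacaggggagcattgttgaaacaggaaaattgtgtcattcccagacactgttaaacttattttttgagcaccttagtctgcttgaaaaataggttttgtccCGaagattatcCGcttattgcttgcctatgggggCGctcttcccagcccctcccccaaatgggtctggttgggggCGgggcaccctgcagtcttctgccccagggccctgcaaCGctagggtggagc
Fcgrt, chr7:45103823-45104072, minus strand: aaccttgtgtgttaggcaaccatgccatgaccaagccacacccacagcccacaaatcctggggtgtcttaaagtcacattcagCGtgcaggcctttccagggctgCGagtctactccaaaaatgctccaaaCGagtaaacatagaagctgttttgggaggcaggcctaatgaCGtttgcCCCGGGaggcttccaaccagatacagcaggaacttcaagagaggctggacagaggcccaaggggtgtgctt
Arpin, chr7:79935265-79935514, minus strand: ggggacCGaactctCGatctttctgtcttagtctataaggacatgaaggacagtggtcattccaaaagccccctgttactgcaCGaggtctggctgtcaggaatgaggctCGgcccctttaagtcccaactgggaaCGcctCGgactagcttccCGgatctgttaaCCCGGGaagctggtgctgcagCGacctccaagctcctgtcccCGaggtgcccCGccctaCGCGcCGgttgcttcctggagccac
Junb, chr8:84978749-84978998, minus strand: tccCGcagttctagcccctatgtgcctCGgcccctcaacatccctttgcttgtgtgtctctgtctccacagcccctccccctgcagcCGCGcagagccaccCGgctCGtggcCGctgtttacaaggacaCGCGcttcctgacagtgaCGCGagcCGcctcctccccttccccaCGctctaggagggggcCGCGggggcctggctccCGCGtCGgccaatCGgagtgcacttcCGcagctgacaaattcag
Pstpip1, chr9:56089726-56089975, plus strand: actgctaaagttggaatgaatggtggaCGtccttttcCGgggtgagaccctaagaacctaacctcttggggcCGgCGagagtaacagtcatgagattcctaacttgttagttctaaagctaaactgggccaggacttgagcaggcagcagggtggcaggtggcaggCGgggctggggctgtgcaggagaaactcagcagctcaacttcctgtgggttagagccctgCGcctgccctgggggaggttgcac
Vmn1r75, chr7:11880093-11880342, plus strand: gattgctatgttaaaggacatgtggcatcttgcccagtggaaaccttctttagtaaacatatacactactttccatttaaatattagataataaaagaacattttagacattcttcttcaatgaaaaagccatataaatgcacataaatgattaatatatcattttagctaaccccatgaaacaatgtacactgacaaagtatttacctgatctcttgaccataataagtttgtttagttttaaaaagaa

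The Arpin and Fcgrt windows each hold 1 CCCGGG and the other 4 hold none. The 250 bases hold 20 CpGs in Junb, 14 in Arpin, 6 in Pstpip1, 5 in Sult5a1, 5 in Fcgrt and 0 in Vmn1r75. The motif CCCGGG reads the same on both strands, and it occurred in 16% of the 1115 windows, in 17.6% of 4872 windows of 4- to 6-probe regions, in 23.7% of 2237 windows of 2- to 3-probe regions and in 13.5% of all 32851 windows of the table. The median CpG observed-to-expected ratio was 0.53 in the windows of long regions, 0.63 in those of 4- to 6-probe regions and 0.38 in all windows. Long regions were brighter where the window held the motif, with a median level of 0.71 over 153 windows with 1 site, 0.74 over 25 with 2 or more and 0.14 over 937 with none. The median CpG observed-to-expected ratio of these windows differed too, at 0.77, 0.81 and 0.46. The motif and the base composition were therefore not separated. By CpG observed-to-expected ratio the median level was -0.32 below 0.3 (323 windows), 0.37 from 0.3 to 0.6 (303) and 0.43 from 0.6 up (489). The median log2 ratio of P21 over E17.5 stayed between -0.043 and 0.025 in these classes.

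Across a long region the signal rose and fell steeply, and it did so in the same way at both ages. The median distance between the brightest and the dimmest probe of a region was 5.27 and 4.95 log2 units in E17.5 and 5.45 and 5.36 in P21 (replicates 1 and 2). The largest step between neighbouring probes had a median of 4.18 and 3.98 in E17.5 and 4.32 and 4.25 in P21. In 1134 long regions (41.8%) a neighbouring pair differed by at least 16-fold at its largest step in all 4 channels, and in 59.1% the largest step lay between the same 2 probes in all 4. The profile of a region along its probes correlated between the ages of an array with a median r of 0.995 and 0.989, and between replicates with 0.967 in E17.5 and 0.974 in P21. These r values are across the probes of a region, which share an array, and describe the arrays. Probes also differ in how well they hybridise. The comparisons by place below use means over many probes. Such means do not remove a difference in hybridisation that goes with place, and its part was not tested. Where single probes of a region are described, a step in their signal cannot be told apart from a difference between the probes.

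In the direction of the gene, the downstream end was the brighter one. The strand of the gene is known from RefSeq for 1492 single-gene long regions, 784 on the plus and 708 on the minus strand. In E17.5 replicate 1 the signal minus its region's mean was -0.64 in the first of 5 equal parts of the region, -0.40 in the second, 0.03 in the third, 0.49 in the next and 0.57 in the last. In replicate 2 of E17.5 it went from -0.62 to 0.52. In P21 it went from -0.66 to 0.58 in replicate 1 and from -0.65 to 0.55 in replicate 2. The probes past the midpoint exceeded those before it by a median of 0.90 and 0.84 log2 units in E17.5 and 0.92 and 0.90 in P21. The difference was above 0 in all 4 channels in 65.3% of these regions and below 0 in all 4 in 22.5%. Regions on the plus strand (0.88, 0.82, 0.90 and 0.87) and on the minus strand (0.93, 0.85, 0.93 and 0.94) had it alike. It was not limited to long regions, since 6005 regions of 4 to 6 probes gave 1.12 and 1.01 in E17.5 and 1.11 and 1.1 in P21. Probes well above background made up 63.6% and 56.6% of the first part in E17.5 and 83.9% and 78.9% of the last. Among probes well above background in their channel on both arrays, the difference was 0.57 in E17.5 and 0.62 in P21, and after normexp background correction it was 0.33 and 0.52.

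**Figure D1:**
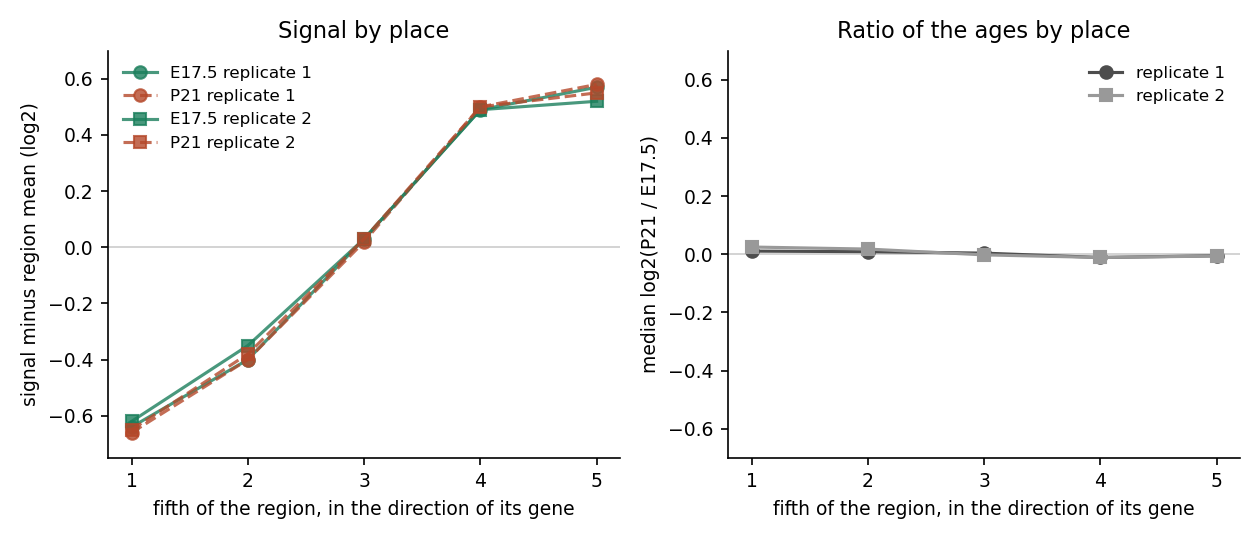
Left, the signal of 1492 long regions with a known gene strand, as the mean over probes of log2 signal minus the region's mean, in 5 equal parts from upstream to downstream, with 1 line per age and replicate. Right, the median log2 ratio of P21 over E17.5 in the same parts for each replicate, on a like scale. The 4 signal lines climb together from about -0.6 to above 0.5, while the ratio lines stay between -0.011 and 0.025.

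Without regard to gene direction, the outermost probe at each end was dimmer than the probes between. The median difference, edge minus centre, was -0.25 and -0.23 in E17.5 and -0.24 and -0.27 in P21, which is -0.24 ± 0.01 (SD, n = 2) and -0.25 ± 0.02 (SD, n = 2) on the log2 scale. Fewer edge probes were lit: 72.3% and 67.0% of edge probes were well above background in E17.5 against 77.0% and 72.0% of centre probes, and in P21 74.2% and 71.9% against 78.8% and 76.4%. Among probes well above background in their channel on both arrays the difference shrank to -0.05 in E17.5 and -0.08 in P21. Single regions went far to either side, with the 10th and 90th percentiles at -2.26 and 1.89 in E17.5 replicate 1. The sign of the difference was the same in all 4 channels in 86.1% of long regions, below 0 in 49.5% and above 0 in 36.6%. By strand, the upstream edge stood at -0.70 and -0.67 against the region's mean in E17.5 and at -0.71 and -0.71 in P21. The downstream edge stood at 0.44 and 0.41 in E17.5 and 0.45 and 0.43 in P21. Inner probes of these regions stood at 0.05 in all 4 channels, so only the upstream edge was dimmer than they were.

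The ratio of the ages differed little by place. Ratios were taken over tested probes, those flagged well above background in 1 or both ages on every array and not marked as outliers, and centred on each array's median. The 2 replicates' median difference between edge and centre of a region averaged 0.0032 ± 0.0025 (SD, n = 2) on the log2 scale over the 2407 long regions with a tested probe in both. By distance from the end, the median log2 ratio lay between -0.019 and 0.009 in all 5 classes on both arrays. The SD of the ratio was 0.36 and 0.49 at the edge and 0.35 and 0.49 in the centre. Probes over 2-fold in one direction on both arrays were 0.940% of tested edge probes and 0.937% of tested centre probes, against 0.917% of all 59516 tested probes of the arrays. In edge probes 10 were higher and 26 lower at P21, and in centre probes 28 were higher and 83 lower. Over all tested probes 0.234% were higher and 0.684% lower, and 0.126% were over 2-fold on both arrays with opposite signs.

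Edge and centre did not differ past the test in any long region (limma, adjusted p under 0.05 with a 2-fold difference of one sign), and 0% of 12221 regions of 3 or more probes did so; the lowest adjusted p among long regions was 0.385 by limma. At an unadjusted p under 0.05 there were 245 long regions (10.2%), against 11.8% of those 12221. Over 2-fold on both arrays in one direction were 12 long regions (0.499%, against 0.483%), and 0 in opposite directions. The differences correlated between replicates with r = 0.374 across 2407 regions, which are not independent samples. With normexp background correction limma called 17 long regions (0.706%, against 1.28% of all tested regions). The 6 with the largest mean difference include several set by 1 probe on 1 array. In the region of the Elp4-Immp1l pair (Elp4 is a subunit of the Elongator complex) the difference was 0.12 in replicate 1 and 6.28 in replicate 2, where its first probe read 87.3 in E17.5, which was not well above background, and 4650 in P21; in replicate 1 that probe read 215 and 233. In Boll, a germ cell RNA-binding protein, it was -0.45 and -3.61, and the first probe read 154 and 108 in replicate 1 and 960 and 71.9 in replicate 2, the last not well above background. Both large differences thus rest on a value at the floor and are not exact. In Pck1, which encodes the gluconeogenic enzyme phosphoenolpyruvate carboxykinase, the first probe read 201 in E17.5 and 65.8 in P21 in replicate 1, and 728 and 73.4 in replicate 2. That probe was not well above background at P21 on either array, so its fold is not exact. The mean over both arrays was 5.51-fold lower, and the arrays lay far apart. Other Pck1 probes were level or higher at P21, up to a log2 ratio of 2.73 in replicate 2. In Sec23a-Sip1, the difference was similar on both arrays (-1.75 and -1.65); its first probe, not well above background at P21 in replicate 1, had log2 ratios of -1.36 and -1.27 and its sixth 1.24 and 1.28.

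For a region as a whole, the mean log2 ratio of its tested probes was compared between the ages. At least 1 probe was tested in 2699 long regions, at least 5 in 2066 and all in 625; 17 had none. The SD of the ratio over long regions was 0.21 in replicate 1 and 0.29 in replicate 2. It was 0.35 and 0.50 for single autosomal probes and 0.22 and 0.30 for 6-probe regions. Among long regions it was 0.22 and 0.32 with 7 probes and 0.18 and 0.22 with 10 or more. A mean over more probes scatters less, so these values do not set long regions apart. Replicates correlated with r = 0.470 and a Spearman rho of 0.362 across long regions, and with r = 0.337 across all regions, which are not independent samples, and 63.4% of long regions had the same sign on both arrays, against 64.1% of all regions. With 2 replicates the smallest exact two-sided p for a single region is 0.5.

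No long region was called by limma at an adjusted p under 0.05, a 2-fold mean change and the same sign on both arrays, and 0% of all 17617 tested regions were. The lowest adjusted p among the long ones by limma was 0.140, for Nrbp2. At an unadjusted p under 0.05 there were 215 (7.97%, against 11.8% of all regions): 78 higher at P21 (2.89%, against 5.12%) and 137 lower (5.08%, against 6.67%). The count of 215 depends on the processing: it was 0 with limma's trend and robust variance and 919 with normexp background correction. With normexp background correction limma called 6 long regions, all higher at P21 (0.222%, against 0.346% of all regions): Nrbp2, P2rx7, Pstpip1, Csf1r, Plec and Cpsf4l.

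Over 2-fold on both arrays in one direction were 5 long regions, 2 higher at P21 (0.0741%, against 0.0965% of all tested regions) and 3 lower (0.111%, against 0.295%). No long region was over 2-fold on both arrays with opposite signs, against 0.0397% of all regions. With normexp the counts were 4 higher and 0 lower. The higher 2 were Nrbp2 and P2rx7, and the lower 3 were Sult5a1, a region of chromosome 11 with no gene name, and Cstf2t, which had 3 tested probes. The lowest mean of all, that of Crct1 (-1.93), rested on 1 array, with -0.56 in replicate 1 and -3.31 in replicate 2 over 4 tested probes, and so did that of Vxn, with 0.05 and -2.57 over 2 tested probes.

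**Figure D2:**
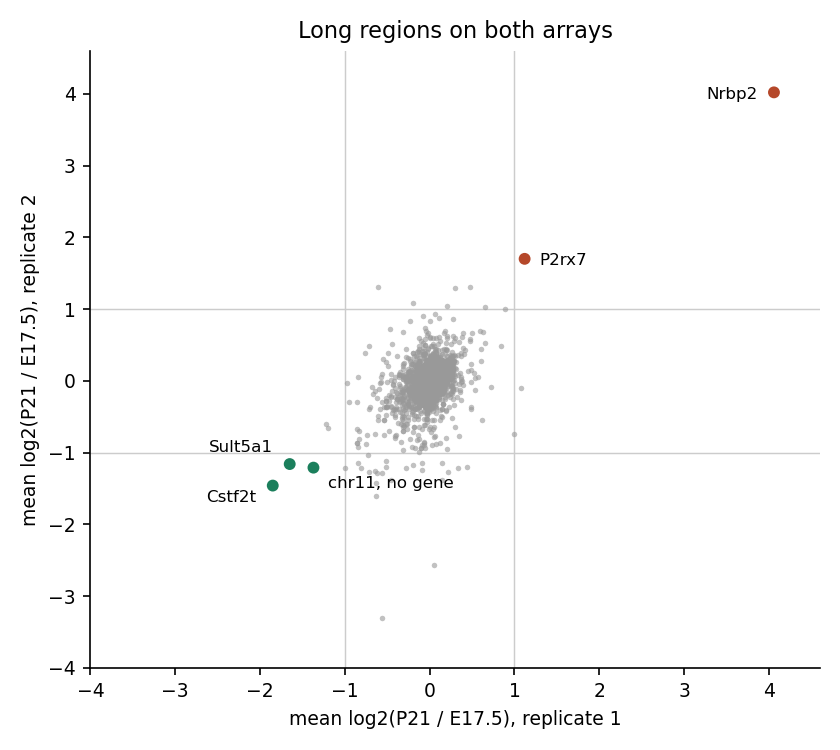
Mean log2 ratio of P21 over E17.5 of the 2699 long regions with a tested probe, replicate 1 on the horizontal and replicate 2 on the vertical axis. Grey points are single regions, grey lines mark 2-fold, and the 5 regions past 2-fold on both arrays are coloured and named; Nrbp2 lies apart at about 4 on both axes.

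The Nrbp2 region, which encodes a nuclear receptor binding protein of the pseudokinase family, lies on chromosome 15 from 76138436 to 76139542 and was higher at P21 along all of its 7 probes. Its level was 4.04 and 4.96 in E17.5 and 8.16 and 9.04 in P21, with no overlap of the ages. The first probe read 5340 and 6270 in E17.5 and 122000 and 183000 in P21, the fifth 9350 and 12300 and then 99200 and 98000, and the last 9860 and 19700 and then 189000 and 237000. The log2 ratio was smallest at the fifth probe (3.39 and 2.97) and largest at the first (4.50 and 4.84). The mean was 4.04 ± 0.03 (SD, n = 2), 16.4-fold on the linear scale, with an adjusted p of 0.140 by limma, so it did not pass. Nrbp2 was the only long region with at least 5 tested probes in which all tested probes were over 2-fold on both arrays, and it kept 7 of 7 under normexp, loess and both other filters on dim probes.

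In P2rx7, an ATP-gated ion channel, on chromosome 5 from 121796070 to 121797091, all 7 probes were bright and higher at P21. Its level was 5.53 and 6.88 in E17.5 and 6.67 and 8.58 in P21, and within each replicate P21 exceeded E17.5, although E17.5 of replicate 2 lay above P21 of replicate 1. The 7 log2 ratios ran from 0.96 to 1.25 in replicate 1 and from 1.59 to 1.90 in replicate 2. The mean was 1.41 ± 0.41 (SD, n = 2; limma adjusted p = 0.359). Probes 2 and 7 missed the 2-fold line only in replicate 1, at 0.96 and 0.97, so 5 of 7 counted as changed; the count was 7 of 7 under normexp and without the filter on dim probes.

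Sult5a1, a cytosolic sulfotransferase, on chromosome 8 from 122539289 to 122540496, was lower at P21 in 6 of its 7 probes. Its first probe read 15100 and 27900 in E17.5 and 4150 and 10600 in P21, and probe 4 read 13800 and 23900 and then 3740 and 8670. The 6 changed probes had log2 ratios from -2.02 to -1.50 in replicate 1 and from -1.58 to -1.27 in replicate 2. The seventh, at one edge, read 1180 and 625 in E17.5 and 686 and 717 in P21, and its ratios of -0.78 and 0.19 differed in sign. The mean was -1.40 ± 0.35 (SD, n = 2; limma adjusted p = 0.335). Under normexp 1 of 7 probes was past 2-fold on both arrays, with means of -1.33 and -0.66.

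The region of chromosome 11 with no gene name, from 106893531 to 106895534, changed in an inner block. Probes 5 to 8 were lower at P21 with log2 ratios from -3.25 to -2.08 in replicate 1 and from -3.29 to -2.15 in replicate 2; probe 8 read 855 and 1440 in E17.5 and 90.8 and 149 in P21. Probes 2 to 4 lay between -0.59 and 0.24, and the last probe had -0.01 in replicate 1 and 1.90 in replicate 2. The 4 changed probes span 626 of 2004 bp (31.2%); under normexp 2 probes were past 2-fold on both arrays, with region means of -0.67 and -0.38. Cstf2t, a paralog of a cleavage stimulation factor subunit, was lit in its last 3 probes only. Those 3 were lower at P21, with 15300 and 17200 in E17.5 against 4990 and 6880 in P21 at probe 7, while probes 1 to 4 were not well above background at either age on either array. Under normexp 0 of the 3 tested probes of Cstf2t were past 2-fold on both arrays, with means of -1.25 and -0.63.

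How far a change reached was read from the probes over 2-fold in one direction on both arrays. Of 2699 long regions, 85 (3.15%) had at least 1 such probe, 23 mainly higher and 62 mainly lower at P21, and 1 had probes of both kinds. A single probe was changed in 54, 2 probes in 13 and 3 or more in 18. Of the 54 single probes 19 were edge probes, and edge probes were 24.4% of tested probes in long regions. A further 10 long regions had a probe past 2-fold on both arrays with opposite signs. Over all tested probes of the arrays, 0.917% were over 2-fold in one direction on both arrays and 0.126% with opposite signs. These counts of regions were not made for shorter regions. A region of more probes has more chances to hold such a probe, so the counts do not set long regions apart. Of the 18 regions with 3 or more, 4 were higher and 14 lower, the changed probes followed each other without a gap in 12, and the mean of the whole region was past 2-fold in 5. The changed stretch covered a median of 35.7% of the region's length and 42.9% of its tested probes; it reached 1 end in 8 regions, both ends in 1 (Nrbp2) and neither in 9. At least 50% of the tested probes were changed in 5 regions with 5 or more tested probes: Nrbp2 with 7 of 7, Sult5a1 with 6 of 7, P2rx7 with 5 of 7, Pxn with 4 of 7 and the unnamed region of chromosome 11 with 4 of 8. Without replicate 2 the count of regions with a changed probe was 233 and without replicate 1 it was 486.

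**Figure D3:**
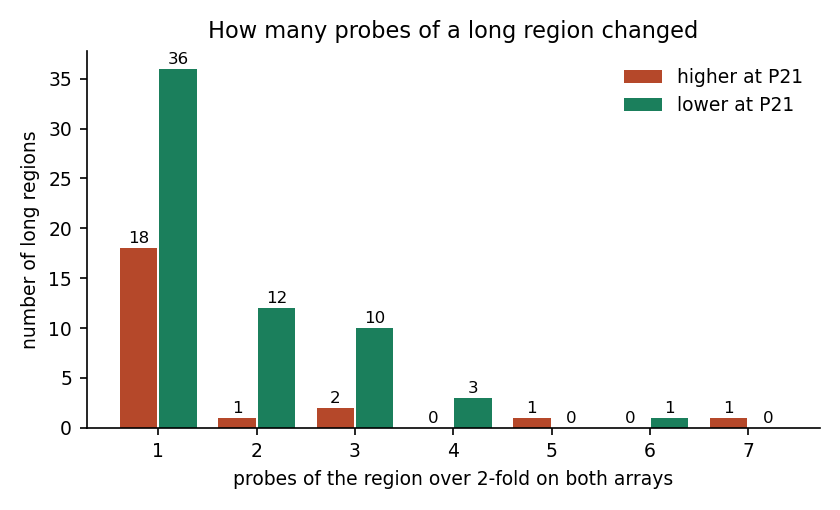
Number of long regions by how many of their probes were over 2-fold in one direction on both arrays, with bars for regions higher at P21 and lower at P21 and the count above each bar. Regions with 1 such probe are the most frequent (18 higher and 36 lower), and 1 region reaches 7.

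Among the 18, the changed probes were brighter than the other tested probes of their region in 12 of the 16 that had both, by the median signal in the age with the higher signal. In that age the changed probes are high by their selection. The count therefore leans to this outcome and is no evidence that bright probes change more. Pxn, the focal adhesion adaptor paxillin, on chromosome 5 from 114656330 to 114657446, had a dim and a bright part. Its first 3 probes read from 1050 to 4170 in E17.5 and from 737 to 3980 in P21, with log2 ratios from -0.53 to 0. Its last 4 read from 79400 to 279000 in E17.5 and from 24900 to 88200 in P21, with ratios from -1.71 to -1.56 in replicate 1 and from -2.17 to -1.64 in replicate 2. The step to the bright part and the start of the change lay between the same 2 probes.

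In Phyhd1, a dioxygenase domain protein, the third changed probe was dim, at 153 and 412 in E17.5, and the other 2, in the bright part, had ratios of -1.1 and -1.91 (probe 5) and of -3.02 and -3.13 (probe 6). Probe 4 between them read 118000 and 182000 in E17.5 and 13500 and 17300 in P21, but carried an outlier flag and was not tested. Fcgrt, the neonatal Fc receptor, held 2 probes brighter than the others; probe 6 read 72100 and 76200 in E17.5 and 10600 and 7100 in P21, and the last 3 probes had ratios between -0.58 and 0.16. In Pstpip1, an actin-associated adaptor of blood cells, probes 2 to 4 were bright and higher at P21. Probe 4 read 98300 and 77700 in E17.5 and 297000 and 171000 in P21. The other 4 probes of Pstpip1 lay between 0.26 and 1.13, above 0 on both arrays.

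In B4galnt1, which makes complex gangliosides, on chromosome 10 from 126897098 to 126898951, the change lay at 1 end. Its first 4 of 10 probes had ratios from -3.37 to -2.13 in replicate 1 and from -1.77 to -1.31 in replicate 2. Probe 2 read 2840 and 5550 in E17.5 and 277 and 1650 in P21. Probe 5 had -1.70 and -0.95. The last 5 probes lay between -0.24 and 0.14, and probe 9 read 8060 and 7760 in E17.5 and 8710 and 8190 in P21. Plec, the cytoskeletal linker plectin, on chromosome 15 from 76279763 to 76281718, turned sign within 1 region. Probes 3 to 7 had ratios from 0.90 to 1.85, while its last 2 probes had ratios from -0.50 to -0.47 on both arrays, and the mean of 0.66 ± 0.25 (SD, n = 2; limma adjusted p = 0.367) joins both. Under normexp the mean was 1.13 for Plec and -0.33 for B4galnt1.

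**Figure D4:**
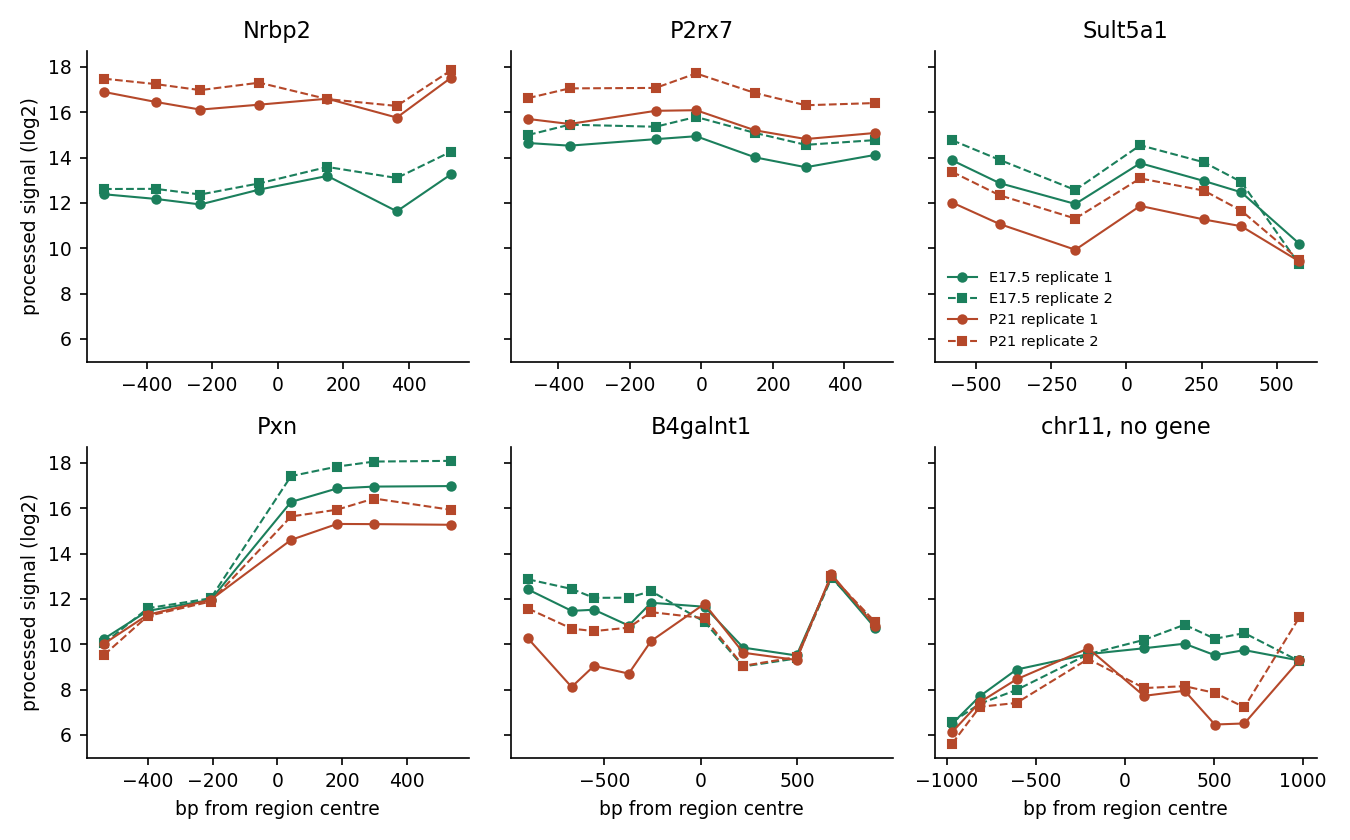
Processed signal on a log2 scale along 6 long regions, by distance in bp from the region's centre, with 1 line per age and replicate and 1 point per probe. The ages are apart along the whole of Nrbp2 and P2rx7, along 6 of 7 probes in Sult5a1, in the bright right part of Pxn, at the left end of B4galnt1 and in an inner block of the unnamed region of chromosome 11.

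The remaining regions with 3 or more changed probes were lower at P21 in part of their length. Arpin, an inhibitor of the Arp2/3 complex, changed in probes 3 to 5, with mean ratios of -1.50 and -2.91 there and 0.03 and -0.32 in its other probes. Junb, an AP-1 transcription factor, changed in probes 4 to 6 (-1.58 and -1.86, against -0.31 and -0.59). The region of Ost4, a subunit of the oligosaccharyltransferase, and the Ost4-Emilin1 pair changed in probes 5 to 7 (-1.77 and -2.64, against -0.10 and -0.44), and that of Tmem186 and Pmm2, a phosphomannomutase, in probes 1 to 3 (-2.21 and -1.57, against -0.04 and -0.45). Ttc28, Ammecr1l, Slc23a1 (a vitamin C transporter) and BC025833 had 3 changed probes each. Under normexp the means of Junb (-0.99), Ost4 with Emilin1 (-1), Tmem186 with Pmm2 (-0.87), Ttc28 (-0.88), Ammecr1l (-0.81), Slc23a1 (-0.95) and BC025833 (-0.82) were -0.59, -0.48, -0.55, -0.53, -0.45, -0.42 and -0.41. Over the 16 regions with unchanged tested probes, those probes numbered 66, of which 34 had the sign of the change on both arrays. Their mean within the region had that sign on both arrays in 13 of the 16. No like share over all tested probes was taken, so these counts have no value to be read against.

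Among the other regions with the largest mean ratio above 0, the spread over probes differed. Csf1r, the receptor for the macrophage growth factor CSF1, had all 7 probes higher at P21, from 0.34 to 0.58 in replicate 1 and from 0.69 to 1.59 in replicate 2, with a mean of 0.89 ± 0.59 (SD, n = 2; limma adjusted p = 0.411). Cmah, which hydroxylates sialic acid, had means of 0.65 and 1.03, and Cpsf4l 0.59 and 0.69, with 2.04 and 1.35 at its probe 7 and -0.04 and -0.35 at the next. Eef2k, the elongation factor 2 kinase, had 0.30 and 1.29, which came from its last 3 probes: probe 6 had 1.17 and 3.96, while probes 2 to 4 lay between -0.14 and 0.23.

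In the 2066 long regions with at least 5 tested probes, the log2 ratio varied more within a region than between regions. The within-region SD was 0.32 in replicate 1 and 0.44 in replicate 2, and the between-region SD 0.17 and 0.22, so 23.3% and 19.9% of the variance lay between regions. The share of a region's tested probes on the side of its mean had a median of 65.3% and 62.5%. Each probe enters the mean it is compared with, which by itself raises this share. Read across arrays, 55.8% of probes in replicate 2 lay on the side that their region's mean had in replicate 1, and 55.5% the other way round. The share was 53.7% where the mean in replicate 1 was under 0.1 in size and 69.5% in the 8 regions where it was 1 or more; with the arrays exchanged it was 52.4% and, in 27 regions, 74.6%. Ratios of neighbouring probes on the same array correlated at r = 0.418 and 0.487 up to 100 bp apart and at 0.207 and 0.186 from 301 to 500 bp. Read across the arrays, r was lower, at 0.251 up to 100 bp and 0.0665 from 301 to 500 bp. Neighbours on 1 array share that array and may share a fragment.

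The brightest long regions over both ages were those of BC025833 (level 7.45), Mbd6 (7.15), a methyl-CpG-binding domain protein, P2rx7 (6.91), Ing4 and Acrbp (6.73), Nrbp2 (6.55) and the Ush1c-Otog pair (5.77). In some of them the ratios were small, but moved with the processing: Mbd6 had ratios of -0.25 and -0.13 (its mean turned to 0.43 under normexp) and Ing4 with Acrbp 0.07 and 0.09 (0.42 under normexp). The 6 dimmest, from -2.44 to -2.38, were Rgs18, Vmn1r69, Vmn1r75, Tas2r108, Tas2r131 and an unnamed region of chromosome 6, and none had a tested probe. Chemosensory receptors, which are expressed in sensory cells, were dim as a family. The 58 long regions of olfactory receptors (Olfr) had a median level of -1.63, the 9 of vomeronasal receptors (Vmn) -1.81 and the 10 of bitter taste receptors (Tas2r) -2.11, against 0.33 over all long regions. Among these, 3, 2 and 2 had no tested probe, out of 17 such long regions in all, and the CpG-free Vmn1r75 promoter printed above belongs to 1 of them.

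Many of the miRNA regions held several precursors, and their sequences show families that share a seed, bases 2 to 8, which leads target recognition. Of 87 miRNA names in long regions 81 matched RefSeq. The sets below come from the 13-probe regions of the miR-200 family, of miR-34b and miR-34c and of let-7e and miR-125a, from the 31-probe region, which was the longest of all; the seed is in capitals.
miR-200b-3p: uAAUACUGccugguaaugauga
miR-429-3p: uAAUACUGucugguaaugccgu
miR-200a-3p: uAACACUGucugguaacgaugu
miR-34b-3p: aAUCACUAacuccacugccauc
miR-34c-3p: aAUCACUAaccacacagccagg
miR-379-3p: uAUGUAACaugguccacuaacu
miR-411-3p: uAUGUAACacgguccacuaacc
let-7e-5p: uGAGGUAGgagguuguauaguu
miR-125a-5p: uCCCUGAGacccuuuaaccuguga

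miR-200b-3p and miR-429-3p share the seed AAUACUG, miR-34b-3p and miR-34c-3p AUCACUA, and miR-379-3p and miR-411-3p AUGUAAC. None of the 55 miRNA regions was over 2-fold on both arrays, where 0.0965% of all tested regions were higher and 0.295% lower. Their median log2 ratio was 0.03, between -0.52 and 0.59, against 0 over all long regions; at an unadjusted p under 0.05 by limma 1 was higher and 1 lower, beside 5.12% and 6.67% of all tested regions. The higher one was Bcl6b with Mir195a (0.65 and 0.53, limma adjusted p = 0.359), with 10 of 10 probes tested. The lower one was Mcm7 with Mir25, Mir93 and Mir106b (-0.34 and -0.60, limma adjusted p = 0.385). Another long region named for Mir195a had -0.07 and -0.10, and another one for Mir106b had 0.04 and 0.05. The miR-200 family region on chromosome 4, which belongs to miRNAs of epithelial cells, was bright, with a level of 2.11 and 2.00 in E17.5 and 2.17 and 2.07 in P21 and ratios of 0.05 and 0.10. Mir34b and Mir34c, on chromosome 9, had levels of -0.05 and 0.54 in E17.5 and -0.21 and 0.09 in P21 and ratios of -0.18 and -0.14. Mir99b, Mirlet7e and Mir125a, on chromosome 17, had ratios of -0.09 and 0.42, and Mir10a with Hoxb4 had 0.20 and -0.01, which differ in sign.

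The imprinted Dlk1-Dio3 domain of chromosome 12 holds miRNAs that are transcribed from the maternal chromosome. Long regions named for a miRNA numbered 9 there between 105066545 and 105220795, with 99 probes, 76 of them tested. Their mean level ran from -0.78 to 1.90. Their ratios ran from -0.36 to 0.22 in replicate 1 and from -1.27 to 0.29 in replicate 2, and 0 of their tested probes were over 2-fold on both arrays, near the 0.917% of all tested probes. The extreme of -1.27 was that of Mir136 with Rtl1, which had 0.22 in replicate 1. The 31-probe region from Mir379 to Mir376b, over 5521 bp, had levels of -0.02 and 0.22 in E17.5 and -0.03 and 0 in P21 and a mean ratio of -0.08 ± 0.07 (SD, n = 2; limma adjusted p = 0.645). Its probes read between 43.2 and 3140, and 14 of its 25 tested probes had the same sign on both arrays. The bright probes lay at the same places in all 4 channels: probe 10, named for Mir411, read 2140 and 2680 in E17.5 and 2050 and 2600 in P21, and probe 26, named for Mir329, read 3140 and 2820 and then 3010 and 2760. Probe 24 was the exception, at 108 and 2330 in E17.5 and 101 and 637 in P21.

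**Figure D5:**
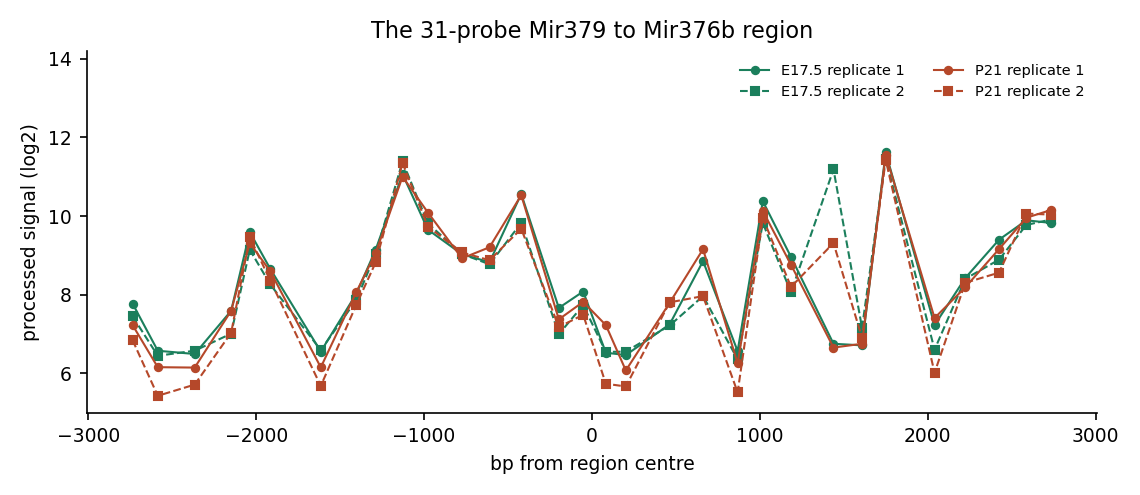
Processed signal on a log2 scale along the 31 probes of the longest region, from Mir379 to Mir376b, by distance in bp from its centre, with 1 line per age and replicate. Bright and dim probes alternate at the same places in all 4 lines, except at 1 probe that was bright in replicate 2.

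The 4 named long regions that follow it in number of probes had ratios above 0 on both arrays. Those of Tmc6 and Tmc8 (20 probes; 0.08 and 0.07), Rpl13a, a ribosomal protein gene with many processed copies in the genome (19 probes; 0.04 and 0.01), Actrt3 and Mynn (17 probes; 0.04 and 0.16) and Kirrel2 and Nphs1 (17 probes; 0.28 and 0.27) changed with the background correction: under normexp the means were 0.28 for Tmc6 with Tmc8 and 0.54 for Kirrel2 with Nphs1, and those of Rpl13a and of Actrt3 with Mynn turned to -0.07 and -0.05. A further region of 17 probes, on chromosome 15 and named for Plec, had -0.02 and 0.02. Kirrel2 and Nphs1, neighbouring genes of kidney filtration proteins, were bright, with levels of 3.38 and 3.88 in E17.5 and 3.66 and 4.11 in P21, and did not pass (limma adjusted p = 0.393).

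Of 8 gene lists, none had a long region called by limma. At an unadjusted p under 0.05, long regions of the Hox cluster list (9 tested) gave 1 higher and 1 lower, imprinted genes (11) 0 and 1, liver transcription factors and nuclear receptors (11) 1 and 0, mature hepatocyte genes (18) 0 and 1, erythroid and other blood cell genes (15) 2 and 2, genes of Wnt, TGF-beta, Notch and hedgehog signalling (19) 0 and 1, fetal liver and oncofetal genes (2) 0 and 1, and other homeobox and patterning factors (30) 0 and 0. Beside these small counts, 2.89% of all long regions were higher and 5.08% lower at that p, and 5.12% and 6.67% of all tested regions. Median log2 ratios ran from -0.07 (imprinted) to 0.06 (liver transcription factors and blood cell genes) over the lists with 9 or more, beside a median of 0 over all long regions, and the 2 fetal liver regions, Lin28a and Cdkn1c, had -0.43 and -0.44. The share of a list's genes on autosomal regions that had a long one was 28.9% for the Hox list, 27.3% for blood cell genes and 8% for fetal liver genes, against 20.9% of all named genes. Of listed markers of liver cell types, 1 of 6 for hepatocytes had a long region (Cyp2e1, 0.09), 2 of 5 for erythroid cells (Hbb-b1, 0.18, and Klf1, 0.06), 1 of 4 for macrophages (Csf1r, 0.89) and 0 of 4 each for endothelial cells, stellate cells and cholangiocytes; the part of the cell mix in the ratios was not tested.

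Of the members with the largest ratio in each list, several had it on 1 array only. Cdkn1c, an imprinted cell cycle inhibitor, had 0.34 and -1.22, Mcts2, an imprinted retrogene, -0.09 and -1.15, and Hoxa2, a hindbrain patterning factor, 1.08 and -0.10. Aqp1, a water channel of red cells and bile ducts, had -0.52 and -1.20, Sox17, an endoderm factor, -0.20 and -0.71, and Lin28a, the fetal RNA-binding protein, -0.27 and -0.60. Pparg, a fat cell nuclear receptor, had 0.61 and 0.44 over 3 tested probes and turned to a mean of -0.19 under normexp. Wnt2 had 0.07 and 0.60, Sfrp1, a secreted Wnt inhibitor, -0.41 and -0.23, Otx1 0.17 and 0.44, and Hoxc6 -0.21 and -0.38. Mir33 with Srebf2, the sterol-regulated transcription factor that hosts it, had 0.03 and 0.48.

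The share of all probes that stood well above background ran from 67.0% to 75.9% over the E17.5 channels and from 71.9% to 77.1% over the P21 channels. The arrays' floors differed between dyes: in long regions, 4016 probes (19%) were below it in all 4 channels, and their median ratio was -0.06 and -0.19 on the first design and -0.38 and -0.91 on the second, although none entered a test. Ratios of dim probes, such as probe 2 of Phyhd1, stand beside these values, and the part of the floor in them was not tested. Of the long regions' probes 6 were saturated in some channel, 1 of them in Mcts2 among the regions named.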

How the data were processed

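Genomic DNA of whole liver was enriched by MCAM and hybridised to Agilent arrays, per the labels' protocols; 8 samples are the 2 channels of 4 arrays. Per the file headers, the authors' intensity values came from Agilent Feature Extraction, version 9.1.1.1 on 1 array and 9.1.3.1 on the other 3 (the submitters' processing notes name 9.1.1.1), with spatial detrending, background subtraction, surrogate values for dim spots and 1 linear dye factor per channel. To check the direction, the log10 ratio (Cy5 over Cy3) that the authors deposited was set against the ratio used here. In the series table deposited by the authors, intensity values are linear, uncentred and those of each sample's own channel: 100% lay within 0.6% of the scanner values, with medians of 460 and 308 (E17.5) and 454 and 312 (P21) on the first design and 341 and 275 and then 330.2 and 267 on the second. The scanner files of both ages of a replicate hold the same array. For the probe coordinates a genome build was not given in the sources used here. There were 0 columns of per-sample values left unused for want of a sample.

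Ratios (log2, P21 over E17.5) were centred on each array's median; before centring the medians lay between 0 and 0.02. Tested probes (29838 of 41545 and 29678 of 41577) had no outlier flag and exceeded background clearly (the scanner software's flag) in 1 or both channels of every array. A region's value was the mean of its tested probes. Tests were limma 3.58.1 (intercept against 0, empirical Bayes, Benjamini-Hochberg over all regions) in R 4.3.3 with data.table (version 1.17.8), checked on simulated data; figures were drawn with matplotlib 3.10.9. The p-values measure the spread between 2 biological replicates, whose number limits the precision. The array is a block by construction, as its 2 channels deviated together (r = 0.697 across long regions). Of the gene names in the files 11571 were current symbols, 3984 were updated through RefSeq (GRCm38.p6), 1010 were pairs, 2284 gave coordinates and 507 were not matched. Edge means the first and last probe.

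The members, the gene lists and the naming rule were chosen with earlier results of these data known. The rule names the 5 regions with most probes; the 8 a side with the largest mean ratio and the 6 with the largest edge difference, with the same sign on both arrays and at least 5 tested probes; those over 2-fold on both arrays; the 6 brightest and 6 dimmest; and 2 per gene list, of which 1 region is not reported here. Regions with 3 or more changed probes, the miRNA regions with most probes, the gene-direction comparison and its alternatives were added after seeing the data. Alternatives were normexp with offset 50, loess, other filters on dim probes, gaps of 200 and 1000 bp, no centring, other definitions of edge, variance and block, other thresholds, the series table, and leaving out each replicate.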

Additional observations from a re-analysis of the deposited data

How the results depend on the processing

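The array, shared by both ages, was a replicate block in the test. With no replicate block, limma called 0 long regions and 0 for edge against centre (39 and 36 at an unadjusted p under 0.05). At that p limma gave 0 and 0 with trend and robust variance, and 919 and 1055 with normexp. All counts at an unadjusted p, those of miRNA regions and gene lists included, thus depend on the variance model and the background correction. The 0 calls of long regions also held under loess, both other filters on dim probes, gaps of 200 and 1000 bp, no centring, trend and robust variance, minimum folds of 1.5 and none, a threshold of 0.01 and the series table, with lowest adjusted p-values between 0.0734 and 0.497 (1 with no replicate block). Normexp gave 6 calls, 17 calls for edge against centre, an edge difference of the ratio of -0.01, and 4 long regions over 2-fold higher and 0 lower; before centring its array medians lay between 0.45 and 0.90, and the cause was not tested. The edge difference of the ratio was -0.0163 with no filter on dim probes, -0.0017 with both channels well above background and 0.025 at a gap of 200 bp, where 552 regions were long. The edge difference of the signal in E17.5 and P21 was -0.06 and -0.08 with the 2 outermost probes as edge, -0.09 and -0.11 with the outer parts of the span, -0.14 and -0.19 under normexp and -0.05 and -0.08 over probes well above background; in E17.5 it was -0.23 at a gap of 200 bp and -0.26 at 1000 bp. With 1 replicate left out, long regions over 2-fold numbered 4 to 8 higher and 5 to 27 lower, the edge difference of the ratio was 0.0015 to 0.005, that of the signal -0.25 to -0.23 in E17.5 and -0.27 to -0.24 in P21, and the share of probes on the side of their region 62.5% to 65.3%; no test is possible on 1 array per design. Regions with 3 or more changed probes numbered 18, but 9 under normexp, 6 at a gap of 200 bp, and 31 and 64 without replicate 2 and 1; regions with any changed probe numbered 18 at a gap of 200 bp. Of 55 named regions with a ratio, 8 changed sign under normexp, 0 under loess, 3 with no filter on dim probes, and 3 and 4 without replicate 1 and 2. Only probes above background carry a ratio, so change in the dark parts of a region was not detectable.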
